A study of Mus musculus with 9 samples.

Results

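The genes described here encode the hydrolases, cofactors and membrane proteins of the lysosome, together with a regulator (Tfeb) and an autophagy adaptor (Sqstm1). They were taken from a list of 38 lysosome genes that leaves out the cathepsins and the subunits of the proton pump V-ATPase, and each was followed through 1 probe set, the brightest by its mean on the 9 arrays among those that name that gene alone. Of the 38 genes, 37 were measured, out of 18194 genes measured in all. Cd63, a tetraspanin of late endosomes and lysosomes, had no probe set under its name in the annotation used and was not analysed here.

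Lysosomes are acid compartments in which glycosidases, sulfatases, lipases, proteases and phosphatases break down material delivered by endocytosis and autophagy. Lamp1, Lamp2 and other heavily glycosylated proteins line their membrane, and the transcription factor TFEB drives many of their genes through short E-box motifs near the transcription start. In bone, osteoclasts release lysosomal enzymes onto the resorbed surface, and osteocytes, the cells buried in the matrix, are thought to use related enzymes to remove matrix from the walls of their own lacunae when lactation raises the demand for calcium.

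RNA came from shafts of the tibia of CD1 wild type mice aged 16-18 weeks, with marrow, periosteum and surface cells removed to enrich for osteocytes, and was hybridised to Affymetrix mouse expression arrays. The groups were post-lactation mice, whose pups had been taken away on lactation day 12 and which were killed on day 7 after that, lactating mice killed on lactation day 12, and virgin mice of the same age, with 3 arrays in each. Dams nursed litters of 8 to 13 pups, so the post-lactation and lactation groups had both gone through pregnancy and nursing, and the virgin group had not. Groups follow the array titles. The source label of the post-lactation arrays gives virgin instead, and the extraction text mentions femurs once. Nothing in the labels ties an array to a mouse, so the p-values below reflect the spread between these arrays, which may be technical. Values are log2 signals summarised by the authors with robust multi-array averaging (RMA), and, apart from the threshold used to leave out dim genes, levels are compared between arrays for a gene and not between genes.

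The arrays fell into 3 sets, recognised from exactly equal values on arrays of a set. Set 1 held post-lactation 1, lactation 3 and virgin 1, set 2 held post-lactation 3, lactation 2 and virgin 2, and set 3 held post-lactation 2, lactation 1 and virgin 3. Array medians ran from 4.32 to 4.34 for set 1 and 4.80 to 4.82 for set 2, and all were 4.57 for set 3. Because each set held 1 array of every group, differences are given over all arrays, within each set, and from a fit that takes the set as a block. Osteocyte markers, given as the mean log2 signal of 13 genes above the array median, lay at 4.27 to 5.07 on post-lactation, 4.45 to 4.72 on lactation and 3.08 to 5.17 on virgin arrays. The lowest was virgin 1, where Sost, the Wnt inhibitor made by osteocytes, read 8.14 against 13.39 and 13.55 on the other virgin arrays. Neutrophil markers (12 genes) stood at 7.93 to 8.23, 7.47 to 8.27 and 7.76 to 8.68 above the array median on post-lactation, lactation and virgin arrays, so neutrophil transcripts were read in every group.

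The promoter windows of the 4 genes that stood highest in lactation against virgin mice are shown so that the core of the TFEB element can be looked for in them. Each runs over 300 bases, 250 before and 50 after the annotated start, on the plus strand, as given by RefSeq for GRCm38.p6. Capitals mark CACGTG, the E-box core, which reads the same on both strands and is the centre of a longer TFEB element with GT before the hexamer and AC after it. Glb1 encodes the lysosomal beta-galactosidase and lies at chr9:114400828-114401127, Naglu encodes the heparan sulfate hydrolase alpha-N-acetylglucosaminidase and lies at chr11:101069844-101070143, Hexa encodes the alpha subunit of beta-hexosaminidase and lies at chr9:59539290-59539589, and Arsb encodes arylsulfatase B and lies at chr13:93771429-93771728.
Glb1: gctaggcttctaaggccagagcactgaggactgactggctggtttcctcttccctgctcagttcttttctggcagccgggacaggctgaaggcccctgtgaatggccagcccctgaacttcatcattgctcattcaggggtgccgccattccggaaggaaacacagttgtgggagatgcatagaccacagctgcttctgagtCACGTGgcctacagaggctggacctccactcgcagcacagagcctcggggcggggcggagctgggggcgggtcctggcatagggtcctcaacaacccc
Naglu: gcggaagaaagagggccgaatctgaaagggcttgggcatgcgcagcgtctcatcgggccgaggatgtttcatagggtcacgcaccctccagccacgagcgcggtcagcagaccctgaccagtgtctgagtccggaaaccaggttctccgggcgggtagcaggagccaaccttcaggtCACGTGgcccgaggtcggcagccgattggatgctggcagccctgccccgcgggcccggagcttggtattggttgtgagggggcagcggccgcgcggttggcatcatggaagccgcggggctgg
Hexa: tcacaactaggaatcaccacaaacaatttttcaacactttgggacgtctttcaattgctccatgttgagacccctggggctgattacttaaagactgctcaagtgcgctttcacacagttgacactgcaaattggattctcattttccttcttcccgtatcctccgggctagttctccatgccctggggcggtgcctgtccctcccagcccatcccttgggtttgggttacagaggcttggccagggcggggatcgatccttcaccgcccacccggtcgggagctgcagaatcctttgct
Arsb: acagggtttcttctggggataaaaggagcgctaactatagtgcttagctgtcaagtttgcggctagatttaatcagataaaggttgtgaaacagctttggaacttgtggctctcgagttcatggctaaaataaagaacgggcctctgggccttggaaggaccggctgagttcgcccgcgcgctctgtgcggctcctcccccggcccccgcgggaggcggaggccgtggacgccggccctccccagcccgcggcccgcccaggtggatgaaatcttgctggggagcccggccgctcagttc
The hexamer began 48 bases upstream of the start of Glb1 and 73 bases upstream of that of Naglu, and these letters did not occur in the windows of Hexa and Arsb. Among the 38 genes 34 had a window in the table, 3 of them more than 1. CACGTG was present in 9 of the 34, or 26.5%, against 8.09% of 27025 genes with a window and 7.15% of 32851 windows. The 9 genes were Arsa, Cln3, Gaa, Gla, Glb1, Lamp1, Mcoln1, Naglu and Sgsh. The longer element of 10 letters, which contains the hexamer and also reads the same on both strands, was found for Cln3 alone, or 2.94% of the 34, against 0.370% of all genes with a window. A match is a description of the letters in the window and shows no binding.

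Glb1 gave the largest difference of the 37 genes both in lactation against virgin and in post-lactation against lactation. Its signals were 5.97, 5.84 and 5.99 on post-lactation arrays 1 to 3, 6.85, 7.19 and 6.67 on lactation arrays 1 to 3, and 5.97, 5.63 and 6.23 on virgin arrays 1 to 3. All 3 lactation arrays were above all 6 others. The lactation mean was 6.90 ± 0.26 and the virgin mean 5.94 ± 0.30 (SD, n = 3 each), a difference of 0.96 (SE 0.22, 95% interval 0.47 to 1.45), or 1.945-fold higher in lactation. Within sets 1, 2 and 3 the difference was 0.70, 1.56 and 0.63. It did not pass in limma over all genes (adjusted p = 1, and 0.195 when the array set was a block). The post-lactation mean was 5.93 ± 0.08 (SD, n = 3), which differed from lactation by -0.97 (1.96-fold lower, SE 0.22, 95% interval -1.46 to -0.48), with -0.70, -1.20 and -1.01 within the sets. The limma adjusted p was 0.12, and 0.056 with the block. Post-lactation and virgin arrays differed by -0.01 (95% interval -0.50 to 0.48). In bulk RNA such as this, a change in the number of cells of a type cannot be told apart from a change in RNA per cell.

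Hexa followed the same order of groups and was the single lysosomal gene of the 37 called in any comparison, once the array set was a block. It read 10.29, 10.55 and 10.89 on post-lactation arrays, 10.97, 11.40 and 10.99 on lactation arrays and 10.46, 10.94 and 10.78 on virgin arrays. The lowest lactation array lay just above the highest virgin array and above every post-lactation array. Post-lactation was 1.46-fold lower than lactation, a log2 difference of -0.54 (SE 0.24, 95% interval -1.06 to -0.02), with -0.70, -0.50 and -0.42 within the sets. In limma the adjusted p was 0.906 without the block and 0.0299 with it (SE 0.088, 95% interval -0.76 to -0.33). The call was kept in 2 of the 9 block fits that left out 1 array, those without virgin 1 and without virgin 3. In the other 7, without virgin 2 or any of the 6 lactation and post-lactation arrays, the limma adjusted p was 0.0607 to 0.172. Lactation against virgin gave 0.39 (SE 0.24), or 1.31-fold, with 0.53, 0.46 and 0.19 within the sets (limma adjusted p = 1, and 0.229 with the block).

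Other glycosidases split between both directions. Naglu read 6.10, 6.23 and 6.99 on post-lactation, 6.34, 7.11 and 6.88 on lactation and 5.88, 6.46 and 6.34 on virgin arrays, so the groups overlapped. Its lactation minus virgin difference was 0.55 (1.46-fold), made of 1.00, 0.65 and exactly 0 within the sets, with a block adjusted p of 0.542 in limma. Man2b1, the lysosomal alpha-mannosidase, ran the other way. It read 10.09, 9.71 and 9.69 on post-lactation arrays, 8.99, 9.16 and 9.48 on lactation arrays and 10.16, 9.32 and 9.20 on virgin arrays. Every post-lactation array exceeded every lactation array, whereas lactation and virgin overlapped. Post-lactation was 1.54-fold higher than lactation, a log2 difference of 0.62 (SE 0.28, 95% interval 0.01 to 1.23), with 0.61, 0.53 and 0.72 within the sets (limma adjusted p = 0.953, and 0.0612 with the block). Lactation minus virgin was -0.35, with -0.68, -0.17 and -0.21 within the sets, and a second, dimmer probe set of Man2b1 gave 0.31 and -0.12 for those 2 differences.

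Gusb, the beta-glucuronidase, read 7.82, 7.97 and 8.23 on post-lactation and 8.04, 8.96 and 8.25 on lactation arrays, and 8.44, 8.23 and 7.98 on virgin arrays. Its post-lactation minus lactation difference was -0.41 (within sets -0.43, -0.73 and -0.07), and lactation minus virgin was 0.19, with overlap in both. Among the rest, Gla (alpha-galactosidase A) had 0.33 for lactation minus virgin but spread over -0.56, 0.26 and 1.29 within the sets. Gaa (acid alpha-glucosidase), Aga (aspartylglucosaminidase), Fuca1 (alpha-L-fucosidase), Idua (alpha-L-iduronidase), Manba (beta-mannosidase) and Neu1 (sialidase) lay between -0.02 and 0.18 for lactation minus virgin and between -0.07 and 0.22 for post-lactation minus lactation. The 12 genes grouped here as glycosidases include Aga, which is an amidase. Over these 12 the median was -0.07 for post-lactation minus lactation and 0.17 for lactation minus virgin, where 10 of 12 were higher.

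**Figure D1:**
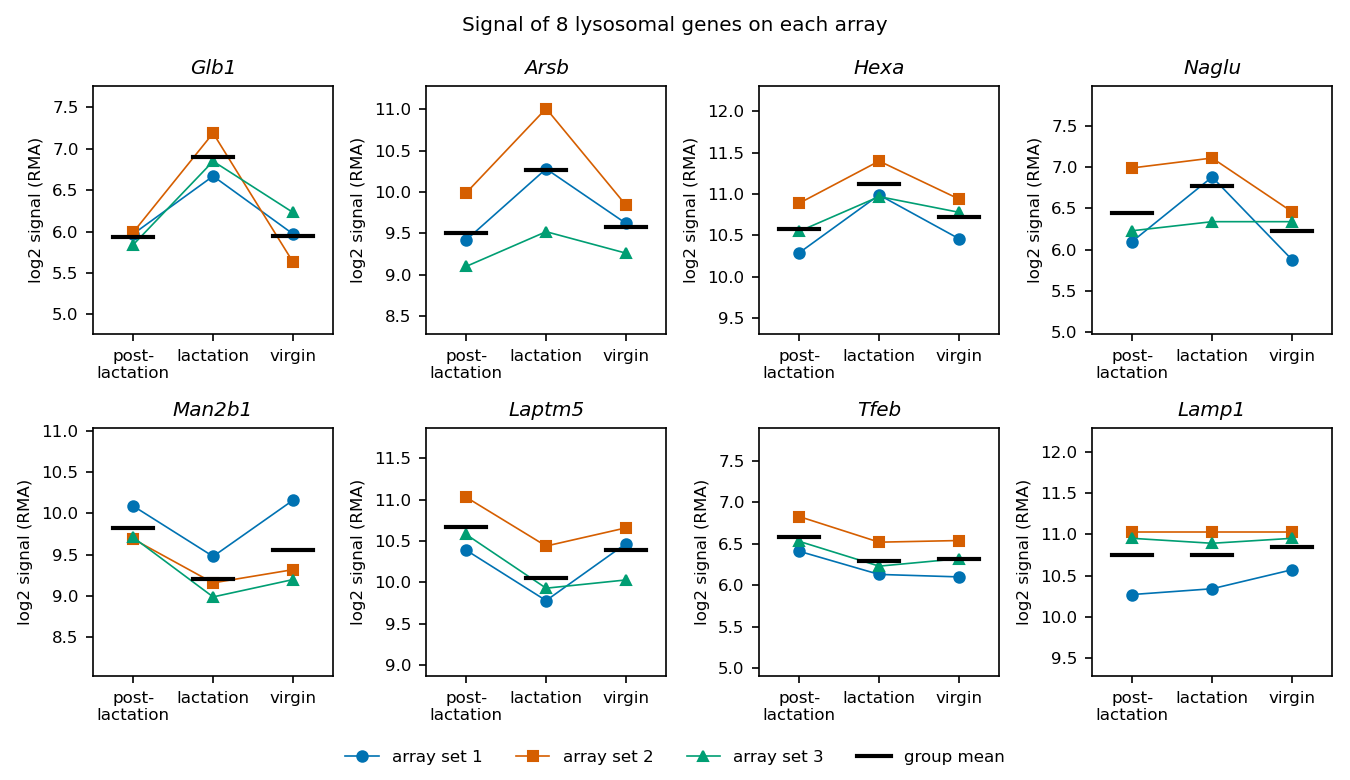
Signal on the log2 scale for 8 genes on each of the 9 arrays, by group on the horizontal axis, with points joined within an array set and black bars at group means (n = 3). The 3 lactation arrays of Glb1 and Hexa lie above the others, and those of Man2b1 lie below the post-lactation arrays. The lines of Lamp1 are close to flat within sets, with exactly equal values in set 2.

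Of the sulfatases, which remove sulfate groups from glycosaminoglycans and sulfolipids, Arsb had the largest differences. It read 9.42, 9.10 and 9.99 on post-lactation arrays, 9.52, 11.01 and 10.28 on lactation arrays and 9.62, 9.84 and 9.26 on virgin arrays. The groups overlapped through lactation 1, yet each lactation array was the highest of its set. Post-lactation minus lactation was -0.76 (1.70-fold lower, 95% interval -1.56 to 0.03), with -0.86, -1.02 and -0.41 within the sets (limma block adjusted p = 0.0751). Lactation minus virgin was 0.70 (SE 0.36), with 0.66, 1.18 and 0.26 within the sets (block adjusted p = 0.247). Of the 2 dimmer Arsb probe sets, 1 gave -0.67 and 0.45 and the other -0.02 and -0.01 for those differences.

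Arsa, arylsulfatase A, had the highest post-lactation minus virgin difference of the 37 genes, 0.37, from 8.28, 7.25 and 7.92 on post-lactation and 7.16, 7.77 and 7.40 on virgin arrays. These groups overlapped, and set 1 gave 1.11, set 2 0.15 and set 3 -0.15. Galns, the galactosamine-6-sulfatase, had the lowest, -0.25, from 7.07, 6.54 and 7.34 on post-lactation and 7.84, 7.32 and 6.54 on virgin arrays. On lactation arrays it read 6.54, 7.16 and 7.20, and the value of 6.54 was the same on all 3 arrays of set 3. Lactation minus virgin was -0.27, and the groups overlapped in every comparison. Ids (iduronate sulfatase) and Sgsh (heparan sulfamidase) gave 0.14 and -0.08 for post-lactation minus lactation, and -0.14 and 0.11 for lactation minus virgin.

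The lipid hydrolases and their cofactors had small differences on the probe sets used, and dimmer probe sets of some disagreed. Lactation minus virgin was 0.30 for Smpd1 (acid sphingomyelinase), 0.25 for Npc2 (the luminal cholesterol carrier) and between -0.05 and 0.05 for Gm2a (the GM2 activator), Lipa (acid lipase), Ppt1 (palmitoyl-protein thioesterase), Psap (prosaposin, precursor of the saposins) and Asah1 (acid ceramidase). Post-lactation minus lactation was -0.23 for Smpd1 and -0.14 for Npc2, both lower in all 3 sets, and 0.20 for Psap, higher in all 3 sets at 0.32, 0.10 and 0.17. The remaining 4 lay between -0.06 and 0.19. The lowest limma block adjusted p of these 7 genes was 0.249, for Psap after weaning. For post-lactation minus lactation the dimmer probe sets gave -0.47 and -0.24 for Gm2a, against 0.04 on the one used, and 0.39 and 0.34 for Lipa, against 0.19. Those of Ppt1 gave -0.30, 0.42, 0.29 and -0.05, against -0.06, and those of Npc2 gave -0.07, -0.36 and 0.27, against -0.14. The direction for Gm2a, Ppt1 and Npc2 thus differed between probe sets.

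Tpp1, a lysosomal tripeptidyl peptidase, read 8.27, 8.15 and 8.82 on post-lactation, 8.63, 9.19 and 8.60 on lactation and 8.24, 8.82 and 8.49 on virgin arrays. Each lactation array was the highest of its set, although the groups overlapped. Post-lactation minus lactation was -0.39, with -0.33, -0.37 and -0.48 within the sets (limma block adjusted p = 0.0866), and lactation minus virgin was 0.29, with 0.36, 0.37 and 0.13. A second probe set of Tpp1 gave -0.53 and 0.44. Acp2, the lysosomal acid phosphatase, read 6.74, 6.46 and 6.70 on post-lactation arrays, 6.46, 6.70 and 6.05 on lactation arrays and 6.11, 6.70 and 6.60 on virgin arrays. Its 0.23 for post-lactation minus lactation came from set 1 alone (0.70), since sets 2 and 3 gave exactly 0, and its dimmer probe sets gave 0.03 and -0.16. Grn, progranulin, differed by 0.03 and 0.09 for post-lactation minus lactation and lactation minus virgin.

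Lamp1 and Lamp2, which line the lysosomal membrane, had small differences with wide intervals. Lamp1 read 10.27, 10.95 and 11.03 on post-lactation, 10.89, 11.03 and 10.34 on lactation and 10.57, 11.03 and 10.95 on virgin arrays. Its differences were -0.01 for post-lactation minus lactation (95% interval -0.60 to 0.59) and -0.09 for lactation minus virgin (95% interval -0.69 to 0.50). Lamp2 read 10.50, 10.99 and 11.00 on post-lactation, 10.99, 11.00 and 10.66 on lactation and 11.09, 10.92 and 10.99 on virgin arrays. Its differences were -0.05 and -0.11, and post-lactation minus virgin was -0.17 (95% interval -0.64 to 0.30). Dimmer probe sets of Lamp2 gave 0.07, 0.07 and -0.16 for post-lactation minus lactation, and -0.04, -0.17 and -0.39 for post-lactation minus virgin. Within sets 1, 2 and 3, post-lactation minus lactation was -0.07, exactly 0 and 0.05 for Lamp1. For Lamp2 it was -0.16 in set 1 and exactly 0 in sets 2 and 3. In both genes all groups overlapped, and the interval of Lamp1 includes differences as large as the -0.54 of Hexa.

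Laptm5, a lysosomal membrane protein of blood cells, had the largest differences among the membrane proteins. It read 10.39, 10.58 and 11.03 on post-lactation arrays, 9.93, 10.44 and 9.78 on lactation arrays and 10.47, 10.66 and 10.03 on virgin arrays. Post-lactation exceeded lactation in every set, by 0.61, 0.60 and 0.64, and overlapped it only because lactation 2 was above post-lactation 1. The difference was 0.62 (1.53-fold, 95% interval 0.04 to 1.20), and it did not pass in limma (adjusted p = 0.888, and 0.0734 with the block). All 5 probe sets of Laptm5 were higher in post-lactation than in lactation, by 0.37 to 0.62, and lower in lactation than in virgin mice, with -0.34 for the one used. Scarb2, which carries beta-glucocerebrosidase to lysosomes, read 8.33, 8.40 and 8.40 on post-lactation, 8.07, 8.40 and 8.22 on lactation and 8.02, 8.61 and 8.60 on virgin arrays. Its lactation minus virgin difference was -0.18 and changed sign between sets (0.20, -0.21 and -0.53).

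The other 4 membrane proteins were Npc1 (cholesterol export), Mcoln1 (the TRPML1 cation channel), Laptm4a and Cln3 (the Batten disease protein). On the probe sets used they lay between -0.02 and 0.21 for post-lactation minus lactation and between -0.04 and 0.16 for lactation minus virgin. For these differences 1 dimmer probe set of Mcoln1 gave -0.20 and 0.26 and another 0.02 and 0.01. The dimmer probe set of Cln3 gave 0.36 and -0.22. Over the 8 measured membrane proteins the median was 0.07 for post-lactation minus lactation and -0.07 for lactation minus virgin, with 3 of 8 higher in lactation.

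Tfeb, which encodes the regulator of lysosome genes, was above both other groups after weaning in every set, by 0.21 to 0.31. Psap shared this order on the probe set used, by 0.10 to 0.32. The dimmer Psap probe set did not, with -0.002 against lactation and -0.10 against virgin mice. Tfeb read 6.41, 6.53 and 6.83 on post-lactation arrays, 6.23, 6.52 and 6.13 on lactation arrays and 6.10, 6.54 and 6.32 on virgin arrays. Post-lactation minus lactation was 0.30 (SE 0.22), with 0.28, 0.31 and 0.30 within the sets, and post-lactation minus virgin was 0.27, with 0.31, 0.29 and 0.21. Neither passed in limma, with block adjusted p of 0.0634 and 0.228. Lactation minus virgin was -0.03. Sqstm1, the p62 adaptor that links ubiquitinated cargo to autophagosomes, gave 0.15 for post-lactation minus lactation and -0.06 for lactation minus virgin, and its dimmer probe set gave -0.25 and 0.05.

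**Figure D2:**
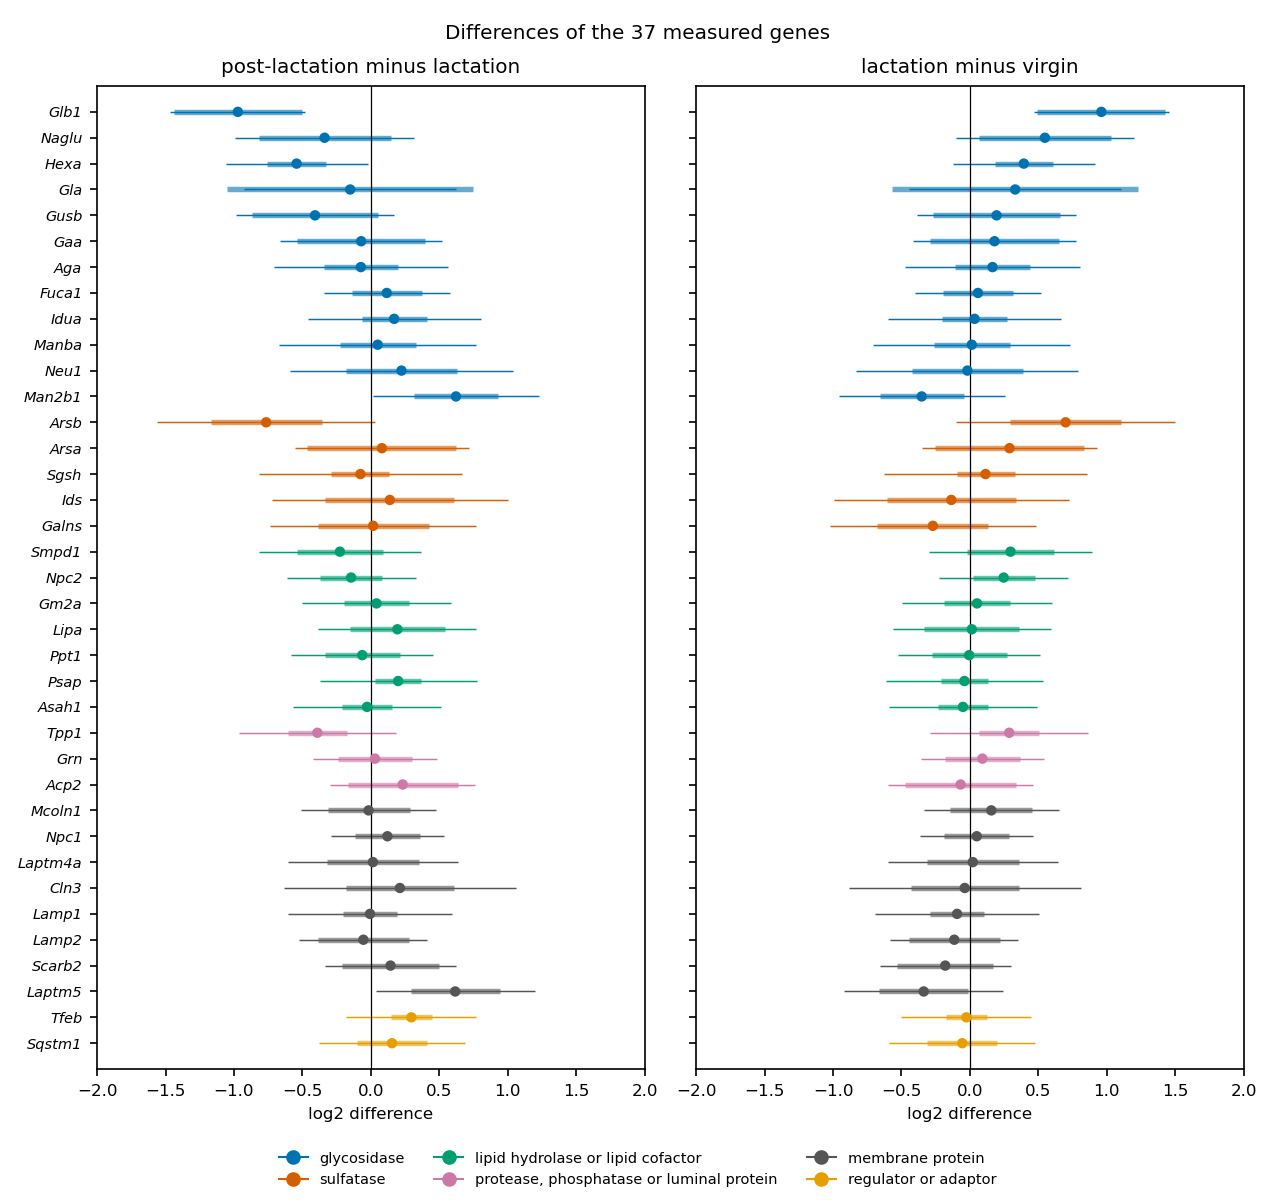
Log2 differences of the 37 genes, post-lactation minus lactation on the left and lactation minus virgin on the right, grouped by role. Thin lines are 95% intervals over all arrays and thick lines those with the array set as a block. Glb1 and Arsb lie farthest from 0 in both panels, and most intervals span 0.

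Counted over the list, lactation against virgin gave 22 of 37 genes higher and 15 lower, with a median of 0.03 against 0.0074 over all genes. By limma 0 of the 37 had an adjusted p under 0.05, as was the case for 0% of all genes, and Glb1 was the 1 gene with an unadjusted p under 0.05, against 1.80% of all genes. With the block 0 were called, against 0.0220% of all genes, and 8 had an unadjusted p under 0.05, against 8.01%. In all 3 sets 7 genes were higher and 2 were lower, against 10.4% and 6.11% of all genes. A gene tied in any set is counted in neither. In sets 2 and 3, 18.9% and 24.3% of the 37 were tied, against 37.1% and 39.9% of all genes. These shares are therefore not a like comparison. Differences over 0.5 were seen for 3 of 37 (8.11%) and for 3.75% of all genes.

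Post-lactation against lactation gave 20 higher and 17 lower, with a median of 0.02 against 0.000 over all genes. Again 0 of the 37 were called without the block, against 0.709% of all genes, while Glb1, Hexa, Laptm5 and Man2b1 had an unadjusted p under 0.05, against 5.06%. With the block 1 gene was called, Hexa, against 3.53% of all genes, and 8 had an unadjusted p under 0.05, against 15.1%. All 3 sets were higher for 7 genes and lower for 10, against 12.8% and 16.1% of all genes. The 7 were Fuca1, Laptm5, Man2b1, Neu1, Psap, Tfeb and Gm2a. Ties again make the shares unlike: in sets 2 and 3, 18.9% and 18.9% of the 37 were tied, against 37.5% and 32.4% of all genes. Differences over 0.5 were seen for 5 of 37 (13.5%), against 7.59% of all genes.

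Post-lactation against virgin gave 26 higher and 11 lower, all between -0.25 and 0.37, with a median of 0.10 against 0.0017 over all genes. By limma 0 were called and 0 had an unadjusted p under 0.05, against 0.176% and 2.09% of all genes. With the block 0 were called, against 0.451%, and Tfeb alone had an unadjusted p under 0.05, against 8.11%. In all 3 sets 2 genes were higher and 2 lower, against 5.91% and 8.15% of all genes. Here 24.3% and 27.0% of the 37 were tied in sets 2 and 3, against 39.0% and 36.2% of all genes.

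**Figure D3:**
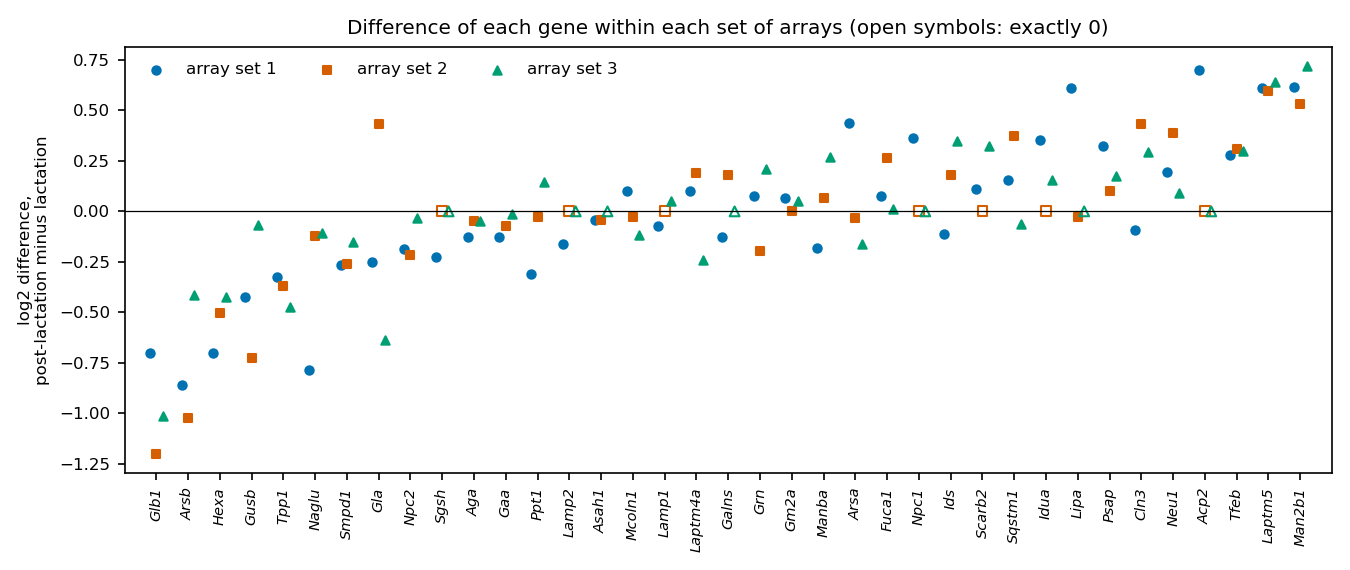
Post-lactation minus lactation on the log2 scale for each of the 37 genes within each array set, ordered by the mean difference, with open symbols where both arrays held exactly the same value. Glb1, Arsb, Hexa, Gusb, Tpp1 and Naglu are below 0 in all 3 sets, and Tfeb, Laptm5 and Man2b1 are above 0 in all 3.

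Grouped by the promoter letters, the 9 genes with CACGTG had a median of -0.07 for post-lactation minus lactation, with 2 of 9 higher, and 0.18 for lactation minus virgin, with 7 of 9 higher. The 24 measured genes whose window lacked it had medians of 0.08, with 16 of 24 higher, and 0.01, with 13 of 24 higher. Post-lactation minus virgin gave 0.14 and 0.10. Glb1, whose window is printed above, was the lowest and the highest of the 9 in the first and second of these differences, and Hexa and Arsb stood among the 24. In those differences the 9 ranged over -0.97 to 0.21 and -0.09 to 0.96, and the 24 over -0.76 to 0.62 and -0.35 to 0.70. The median SE of the 37 genes was 0.26, and the genes with and without the letters were not compared by a test.

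The wider pathway was read from lists of other lysosome genes. Of 26 measured hydrolases, cofactors and enzyme receptors outside the 37, 12 were higher and 14 lower in post-lactation than in lactation, and 17 were higher and 9 lower in lactation than in virgin mice. By limma 0 were called with or without the block. Without it 3 of the 26 had an unadjusted p under 0.05 after weaning and 0 in lactation, against 5.06% and 1.80% of all genes, and with it 5 and 2, against 15.1% and 8.01%. Creg1, a glycoprotein of the endolysosomal lumen, differed by -0.79 and 0.40 in these comparisons, Gnptab, which starts the mannose 6-phosphate tag on hydrolases, by -0.73 and 0.52, and Prcp, a carboxypeptidase, by -0.31 and 0.09. Plbd1, a phospholipase B-like protein, ran the other way with 0.86 and -0.47, as did Hgsnat, the heparan sulfate acetyltransferase, with 0.26 and -0.11. Igf2r, the mannose 6-phosphate receptor that delivers hydrolases, gave 0.46 and -0.02. Dpp7, a dipeptidyl peptidase, gave -0.22 and 0.56, Arsg, a sulfatase, 0.21 and -0.29, and Sort1, the sorting receptor sortilin, 0.07 and -0.21.

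Of 23 other lysosomal membrane proteins, 13 were higher and 10 lower in post-lactation than in lactation, and 14 were higher and 9 lower in lactation than in virgin mice. By limma with the block, 1 of the 23 was called higher and 1 lower after weaning, against 3.53% of all genes called in either direction. Cd68, a LAMP-family protein of macrophages and osteoclasts, read 8.52, 8.22 and 9.25 on post-lactation, 9.01, 9.97 and 9.32 on lactation and 8.47, 8.43 and 8.10 on virgin arrays. All lactation arrays were above all virgin arrays, by 1.10 on average, and post-lactation overlapped both. Its limma block adjusted p was 0.0718 for post-lactation minus lactation (-0.77) and 0.108 for lactation minus virgin. Tmem9, a membrane protein that binds lysosomal chloride-proton exchangers, read 5.40, 5.40 and 6.24 on post-lactation, 6.15, 6.77 and 6.04 on lactation and 5.46, 6.27 and 5.60 on virgin arrays. With the block it fell after weaning by 0.64 (limma adjusted p = 0.00691, and 1 without the block), a call kept in 7 of 9 fits that left out 1 array and lost without lactation 1 (0.0584) and without lactation 3 (0.0501). Tmem63a, a mechanosensitive cation channel, was higher after weaning by 0.43 with the block (limma adjusted p = 0.0417, and 1 without the block), a call kept in 1 of those 9 fits, the one without virgin 1. The lactation minus virgin differences were 0.54 for Tmem9 and -0.27 for Tmem63a. Clcn7, the chloride-proton exchanger of lysosomes and of the osteoclast ruffled border, gave -0.40 and 0.55, Laptm4b 0.28 and -0.55, Mfsd8 0.25 and 0.09, and Lmbrd1, needed for cobalamin export, 0.07 and -0.20.

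Of 40 autophagy genes and lysosome regulators, 22 were higher and 18 lower after weaning, and 20 were higher and 20 lower in lactation than in virgin mice, with medians of 0.007 and -0.003. By limma with the block, 1 of the 40 was called after weaning, against 3.53% of all genes. With the block Atg4b, a protease that processes ATG8 proteins, fell after weaning by 0.46 (limma adjusted p = 0.0461, and 0.769 without the block), with 0.28 for lactation minus virgin. It read 6.78, 6.98 and 6.82 on post-lactation, 7.24, 7.35 and 7.36 on lactation and 7.04, 7.10 and 6.98 on virgin arrays, without overlap of the first and second of these groups, and the call was kept in 1 of 9 fits that left out 1 array, the one without post-lactation 2. Fnip2 and Fnip1, folliculin partners in nutrient sensing at the lysosome, gave -0.64 and 0.49 after weaning and 0.31 and -0.26 in lactation. Atg9a, the lipid scramblase of autophagosome formation, gave -0.38 and 0.09, Atg3, which conjugates ATG8 to lipid, 0.33 and -0.28, and Lamtor4, a Ragulator subunit, 0.36 and -0.16. Rragd, a Rag GTPase, gave -0.25 and 0.44, and Wipi2, a phosphoinositide-binding autophagy protein, -0.26 and 0.36. The TFEB relatives Mitf and Tfe3 differed by 0.13 and 0.08 after weaning and by 0.20 and -0.05 in lactation.

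In post-lactation against virgin mice, 11 of the 26 other hydrolases and cofactors were higher and 15 lower, 13 of the 23 other membrane proteins were higher and 10 lower, and 23 of the 40 autophagy genes and regulators were higher and 17 lower. By limma 0 of these were called with or without the block. Without it 0 had an unadjusted p under 0.05, against 2.09% of all genes, and with it 1, 1 and 2 did, against 8.11%. The highest and lowest were Igf2r (0.44) and Creg1 (-0.39) in the first list, Mfsd8 (0.34) and Laptm4b (-0.27) in the second, and Mitf (0.32) and Fnip2 (-0.34) in the third. The others among the 3 highest and 3 lowest of each list were Plbd1 (0.39), Dpp7 (0.34), Prcp (-0.22) and Galc (-0.26), then Cd68 (0.33), Mcoln2 (0.23), Slc17a5 (-0.16) and Tmem192 (-0.16), then Fnip1 (0.23), Gabarapl1 (0.20), Rubcn (-0.23) and Atg9a (-0.29).

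Markers of other cells were read beside these genes. The mean log2 signal of the 37 lysosomal genes above the array median was 3.71 to 3.98 on post-lactation, 3.72 to 4.03 on lactation and 3.71 to 3.94 on virgin arrays. Osteoclast markers, 14 of 15 measured, were at 2.62 to 3.14, 3.61 to 3.997 and 2.80 to 2.90 in the same groups, so every lactation array was above every other array. The log2 of their summed signal, taken above the array median, was 8.13 to 8.73 on post-lactation, 9.55 to 10.06 on lactation and 8.42 to 8.75 on virgin arrays. Of the 14, 12 were lower in post-lactation than in lactation. By limma 1 was called without the block and 7 with it, against 0.709% and 3.53% of all genes. The call without the block was Car2, the lowest of the 14 (-3.69), which also enters the summed signal. Car2 read 8.21, 8.91 and 8.97 on post-lactation, 12.46, 12.86 and 11.84 on lactation and 11.09, 12.22 and 11.07 on virgin arrays. In post-lactation against virgin mice it was again the lowest (-2.76), where 9 of the 14 were higher and all 13 erythroid markers were lower. Which cells the Car2 RNA came from was not tested. In lactation 12 of the 14 osteoclast markers were higher than in virgin mice. By limma 0 were called without the block and 1 with it, against 0% and 0.0220% of all genes. An unadjusted p under 0.05 was found for 10 without the block and 10 with it, against 1.80% and 8.01% of all genes. Dcstamp, needed for osteoclast fusion, read 6.09, 5.61 and 6.88 on post-lactation, 7.01, 8.02 and 7.22 on lactation and 5.72, 6.43 and 5.70 on virgin arrays.

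Glb1, Arsb, Hexa, Tpp1 and Npc2, and Cd68 among others of the wider lists, had their highest array of each set in lactation. The mean levels of the osteoclast and of the erythroid markers did so too. All 13 erythroid markers were higher in lactation than in virgin mice, and lower after weaning, in all 3 sets. The part of either marker list in the lysosomal differences was not tested. Osteoblast markers (9 of 12 measured) lay at 6.21 to 6.60 above the median on post-lactation, 6.42 to 6.57 on lactation and 5.85 to 6.16 on virgin arrays. Every post-lactation and lactation array was thus above every virgin array. All 9 were higher in lactation than in virgin mice, with a median of 0.57, and 4 of 9 were higher in post-lactation than in lactation, with a median of -0.02. By limma 0 of these were called in either comparison with or without the block. The shares over all genes were 0% and 0.0220% in lactation and 0.709% and 3.53% after weaning, without and with the block. Without it 2 had an unadjusted p under 0.05 in lactation and 0 after weaning, against 1.80% and 5.06% of all genes. With it 4 and 1 did, against 8.01% and 15.1%. The part of the osteoblast markers in the lactation minus virgin differences was not tested either. Macrophage markers (16 genes) lay at 1.83 to 2.27, 1.82 to 2.24 and 1.70 to 2.06 above the median on post-lactation, lactation and virgin arrays. B lymphocyte markers (11 genes) lay at 3.18 to 3.86, 2.17 to 2.76 and 1.24 to 2.88, with all 11 higher in post-lactation than in lactation, as Laptm5 was. In lactation against virgin mice 5 of the 11 were higher and 6 lower. Of the 12 neutrophil markers 7 were higher and 5 lower in post-lactation than in lactation, with a median of 0.29. In lactation 1 of the 12 was higher and 11 were lower than in virgin mice, with a median of -0.28. The part of either list in the Laptm5 differences was not tested. Erythroid markers (13 genes) lay at 0.43 to 1.04, 4.49 to 4.92 and 3.06 to 4.06, the widest shift among these lists.

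**Figure D4:**
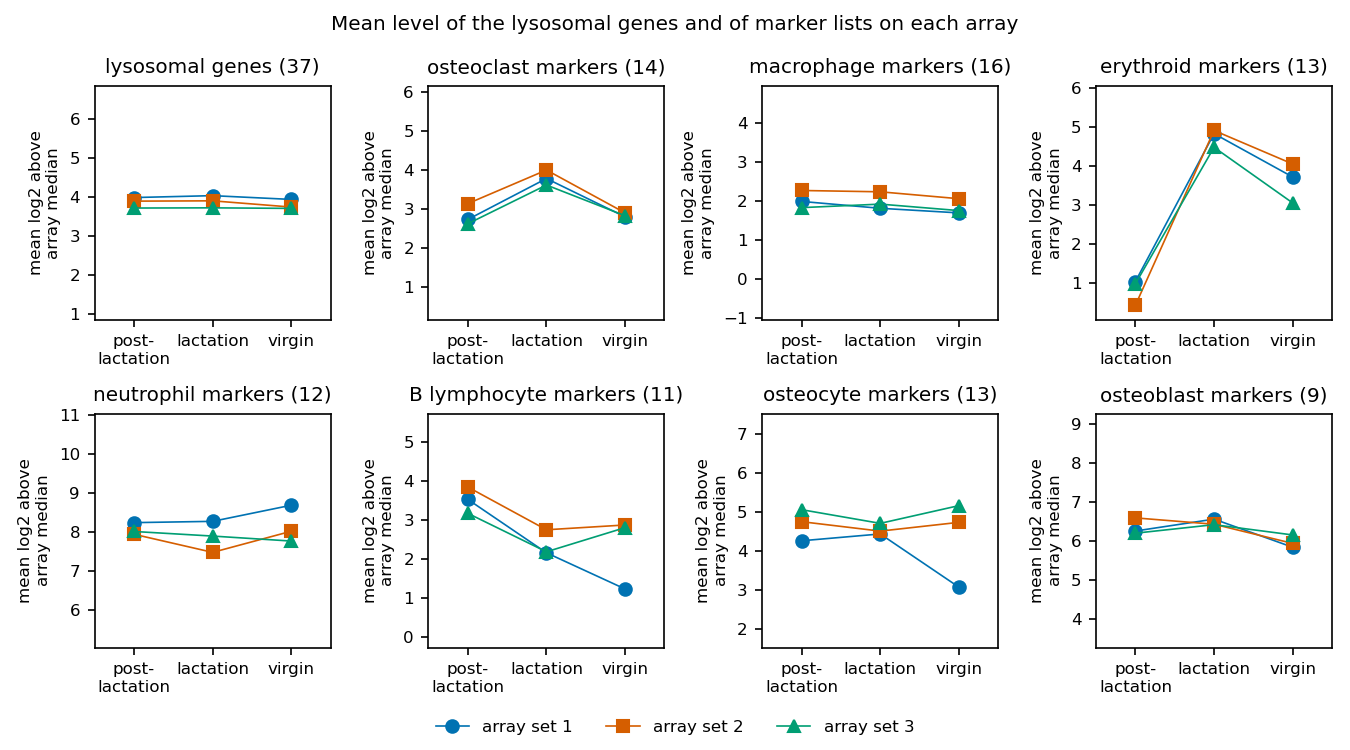
Mean log2 signal above the array median for the 37 lysosomal genes and 7 marker lists on each array, by group on the horizontal axis, with points joined within an array set and the number of genes in brackets. The lysosomal genes stay between 3.71 and 4.03 on all arrays, and osteoclast and erythroid markers are highest on the 3 lactation arrays.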

How the data were processed

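Deposited values were log2 signals for 45101 probe sets on 9 arrays, summarised with RMA per the submitters' processing notes. Their software version and filters are not stated there. They were used without further normalisation. Probe sets naming 1 gene in the annotation supplied for the array (34958, with 932 naming several genes and 9211 none) were kept, and the brightest over all arrays stood for each of 18194 genes. Gene groups were compared with limma 3.58.1 in R 4.3.3 (lmFit, eBayes, 6 residual degrees of freedom), with Benjamini-Hochberg adjustment over all genes and calls at an adjusted p under 0.05. The method was tested on simulated data with normal noise and an offset for each array. These held no exact ties, so the test does not cover the ties described below.

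Arrays were put in 1 set where more than 1% of probe sets held exactly equal values. Equal pairs made up 2.5 to 2.7% in set 1, 41.7 to 43.4% in set 2 and 36.1 to 44.1% in set 3, and at most 2 probe sets between sets. Genes thus often differ by exactly 0 within sets 2 and 3. These ties were not confined to dim genes, since Lamp1 was tied in set 2 and Lamp2 in set 3 in every comparison. The fit with the array set as a block had 4 residual degrees of freedom. Its median SE over all genes was 0.106, against 0.260 without the block. Exactly tied values enter that spread, and their effect on the block p-values was not tested. Title numbers did not pair the arrays: deviations from group means correlated between -0.413 and 0.67 over the 9 same-numbered pairs, against 0.468 to 0.734 within sets.

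The genes, lists and alternatives were chosen with earlier results of these data known. Every gene of the list is described; per-array values are given for called genes, the 4 highest and 4 lowest in each comparison, and Lamp1, Lamp2, Glb1 and Tfeb. Of the wider lists, called genes and the 3 highest and 3 lowest are named. Alternatives included other blocks, probe set averaging, quantile normalisation, dim genes left out and leaving out each array. The number of arrays limits precision.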

Additional observations from a re-analysis of the deposited data

How the results depend on the processing

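With the array set as a block, the count of the 37 genes called in post-lactation against lactation became 1, Hexa, against 0 without it. It was also 1 with an added intensity trend, without virgin 3 (Hexa both times) and without virgin 2 (Glb1, limma adjusted p = 0.0273). It was 3 with dim genes left out (Hexa, Glb1 and Man2b1) and 4 without virgin 1 (Hexa, Laptm5, Man2b1 and Tfeb, limma adjusted p = 0.0106 for Laptm5). It was 0 in each of the 6 block fits without 1 lactation or post-lactation array. Over all genes 592 were called with the trend, 501 without virgin 3 and 378 without virgin 2. With dim genes left out 700 were called and without virgin 1 927, against 642 with the block alone. The combinations of this block with other choices were added after seeing the data. With the title number as a replicate block 0 of the 37 were called in all 3 comparisons, as without it, and 0, 118 and 33 of all genes against 0, 129 and 32 without a block, in lactation against virgin, post-lactation against lactation and post-lactation against virgin. With the array set as a block 4, 642 and 82 of all genes were called, and with 1 array left out as well 0 in every such fit, 195 (without lactation 2) to 927 (without virgin 1), and 0 (without post-lactation 1 or virgin 2) to 42 (without virgin 3). Quantile normalisation gave 1 and 200 in lactation against virgin and post-lactation against lactation, and leaving out 1 array gave 76 to 138 in post-lactation against lactation and 13 to 34 in post-lactation against virgin.

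The median difference of the 37 genes in post-lactation against lactation was -0.072 within set 1 and -0.14 to 0.14 when 1 array was left out. In lactation against virgin it was 0.10 within set 1 and -0.085 to 0.14. In post-lactation against virgin it was 0.029 with probe sets averaged, 0 within set 3 and -0.051 to 0.21. The sign of differences near 0 turned when 1 array was left out. Post-lactation minus lactation ranged over -0.21 to 0.23 for Lamp1 and -0.16 to 0.11 for Lamp2. Post-lactation minus virgin ranged over -0.60 to 0.051 for Galns, -0.17 to 0.13 for Glb1 and -0.24 to 0.14 for Lamp1. Lactation minus virgin ranged over -0.62 to 0.034 for Galns, -0.23 to 0.11 for Lamp1 and -0.14 to 0.085 for Tfeb. With the block as well, Acp2 gave -0.0015 for post-lactation minus lactation without post-lactation 1. Glb1 gave 0.093 without post-lactation 2, 0.053 without virgin 1 and 0.17 without virgin 3 for post-lactation minus virgin, and 0.0044 under quantile normalisation. Lamp1 gave 0.016 without lactation 2 and 0.060 without post-lactation 1 for post-lactation minus lactation. Lamp2 gave 0.077 without post-lactation 1 in that comparison, and 0.013 for post-lactation minus virgin and 0.068 for lactation minus virgin without virgin 1. Tfeb gave 0.0041 without virgin 3 for lactation minus virgin. The cause of these shifts was not tested. All 37 genes passed the threshold for dim genes, the 40th percentile of gene means (4.87), and differences of Glb1 kept their direction in post-lactation against lactation and in lactation against virgin under every alternative run, with ranges of -1.10 to -0.77 and 0.72 to 1.14.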
